A study of Mus musculus with 12 samples.

Results

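The potassium channel genes described here are the protein-coding genes of the deposited count table whose mouse symbol starts with Kcn, without Kcnj13 and Kcnj8. Of 52634 genes in the table, 99 had such a symbol, 94 of these were protein coding, and 92 remained. They were grouped into 16 classes by symbol. The voltage-gated pore subunits are Kv1 (8 genes), Kv2 (2), Kv3 (4), Kv4 (3), KCNQ (5), the EAG family (8) and the silent Kv subunits (10). The pore subunits opened by calcium or sodium are in BK (6), SK (4) and Slack (2). BK also counts its beta subunits and Kcnu1, which was placed there by symbol. Inward rectifiers (Kir, 13 genes) and 2-pore leak channels (K2P, 14) follow. The auxiliary subunits are Kv beta (3), KChIP (4) and MinK (5), and Kcnrg (1) stands alone.

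The study sequenced polyadenylated RNA from mouse dorsal hippocampus at postnatal day 7. Controls were SERTfl/fl, which carry a loxP-flanked Slc6a4, the gene of the serotonin transporter SERT, and the other genotype was SERTPyramid, named for loss of that transporter in pyramidal neurons. The sources used here name neither the Cre driver of SERTPyramid nor the litters behind the pools. Each library pooled tissue of 4 mice, and 3 libraries were made for each genotype in each labelled sex, 12 in all.

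Potassium channels let potassium leave or enter cells along its gradient and thereby set the resting potential, repolarize action potentials and limit firing. Voltage-gated pores assemble as tetramers, often with auxiliary subunits that alter gating and trafficking, whereas inward rectifiers and 2-pore channels work near the resting potential. In the hippocampus, Kv4 channels with KChIP subunits carry the dendritic A-type current of pyramidal neurons, KCNQ channels carry the M-current, GIRK channels (Kcnj3, Kcnj5, Kcnj6, Kcnj9) are opened by Gi-coupled receptors such as the serotonin receptor Htr1a, and Kcnj10 buffers potassium in astrocytes.

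Library totals ran from 18747249 to 25522347 counts, and the members took 0.387% to 0.416% of them. Slc6a4 itself had 0 to 17 counts per library and did not separate the genotypes, with a 2-sided exact permutation p of 0.3 in labelled females and 0.5 in labelled males, where 0.1 is the smallest p that 3 against 3 libraries allow. Xist and Y-linked counts contradicted the sex on the label of 10 libraries out of 12, so female and male below mean the label only. The libraries whose counts matched their label were control replicate 1 of each labelled sex, so that in each genotype comparison 1 control carried the sex-linked pattern opposite to the other 5 libraries. Markers of pyramidal neurons were high throughout, with Slc17a7 (a vesicular glutamate transporter) at 1095 to 1333 CPM and Camk2a at 1957 to 2659 CPM, and markers of subfields differed in level. Of the CA1 markers, Fibcd1 was at 90.8 to 116 CPM and Spink8 at 1.93 to 3.35. Of the CA3 markers, Grik4 was at 70.6 to 80.7 CPM and Iyd at 1.54 to 3.31. The summed level of 7 choroid plexus markers ranged from 27.7 to 2477 CPM between libraries. CPM here are counts scaled to the TMM-adjusted library size (the usual CPM unit), and CPM per kb are CPM divided by the merged exon length. In bulk tissue, fewer cells of a type and less RNA per cell cannot be told apart, and p-values measure only how these libraries spread.

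Levels of the members spanned from almost no counts to 41.8 CPM per kb. Over the 6 control libraries, 22 members averaged 10 CPM per kb or more, 41 lay between 1 and 10, and 29 were under 1. The 10 highest members together held 45.5% of the summed CPM per kb of all 92. Kcnc4, a fast-activating Kv3 subunit, was highest at 41.8 ± 7.77 CPM per kb (SD, n = 6). Kcnd2, the Kv4 pore subunit of the dendritic A-type current, followed at 40.4 ± 1.87 CPM per kb. Kcnab2, a Kv beta subunit of Kv1 channels, averaged 38.3 ± 1.88 CPM per kb. These 3 could not be ordered, since the ranges of neighbours in the order overlapped. Kcnip2, a KChIP partner of Kv4, stood at 37.8 ± 1.33 CPM per kb and overlapped with Kcnab2. Kcnk1, a 2-pore leak subunit, stood lower at 26.1 ± 1.04 CPM per kb. Kcnj4, a strong inward rectifier, at 22.4, Kcnip3 at 22.3 and Kcnj10 at 22.0 CPM per kb overlapped with one another.

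**Figure D1:**
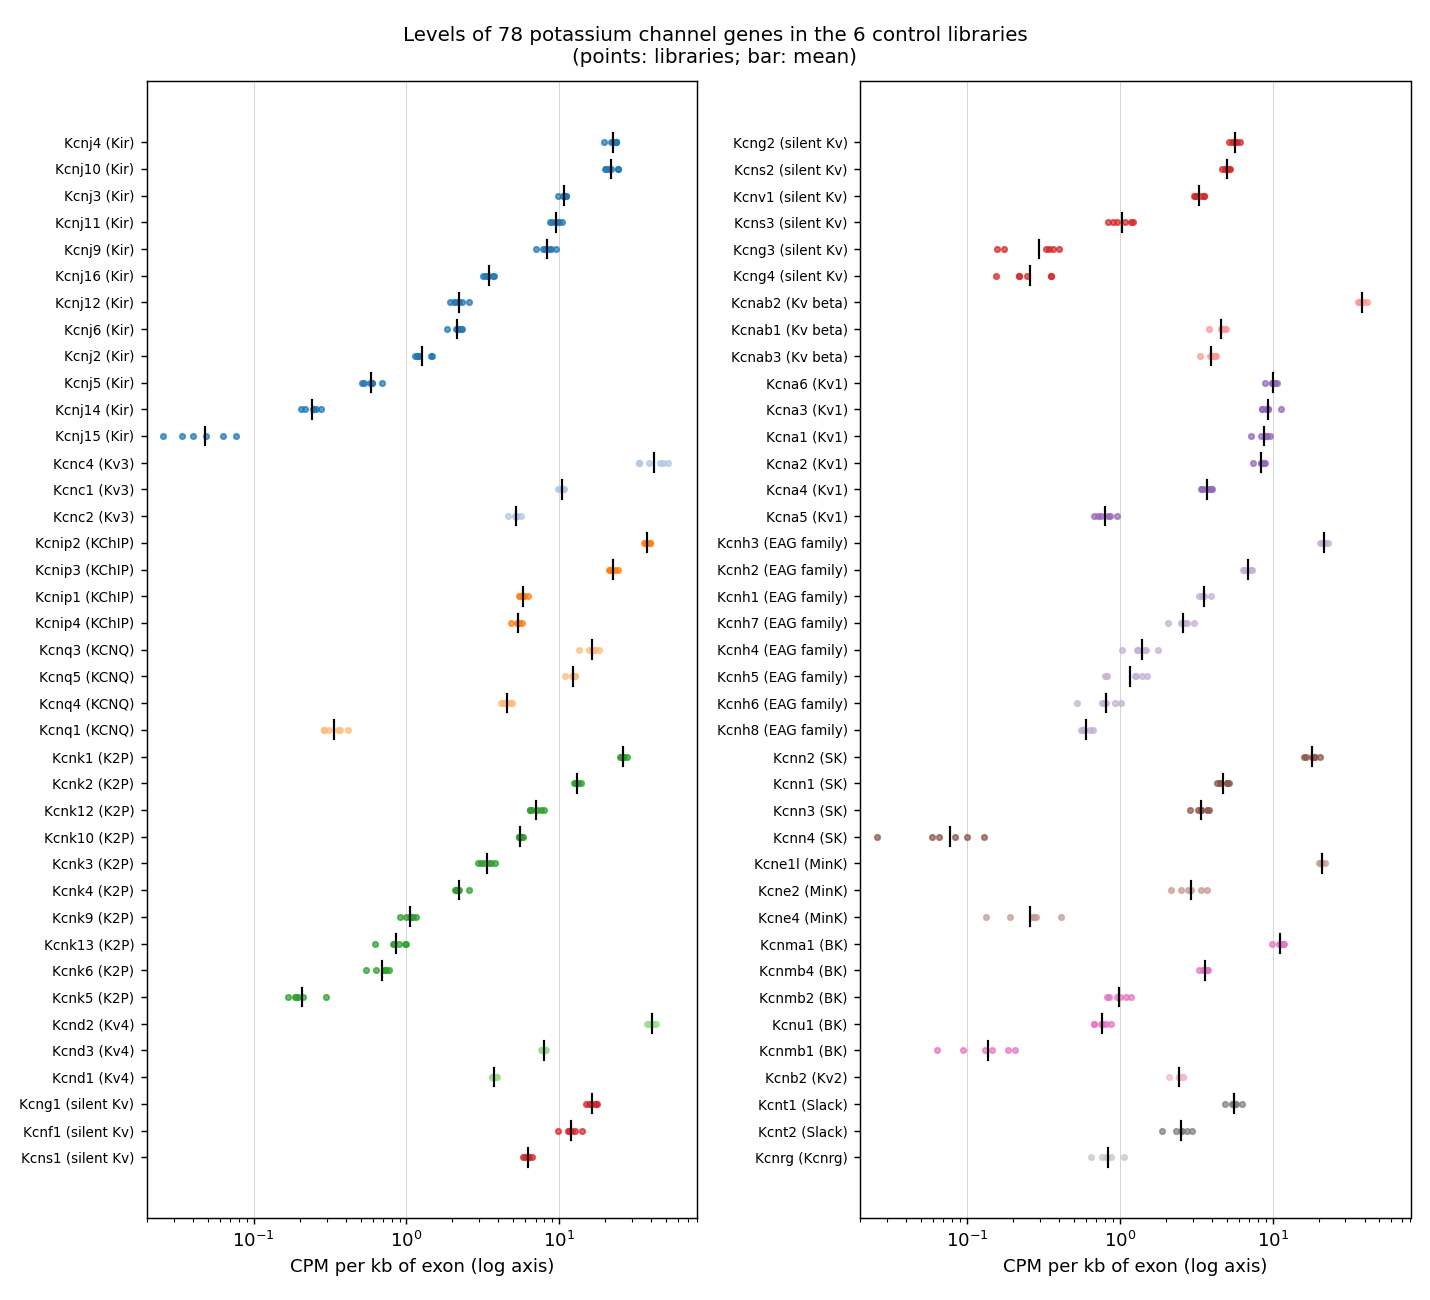
CPM per kb of exon (log axis) of 78 of the members that passed the low-count filter, in each of the 6 control libraries (points), with the mean (bar), ordered by class and by level within the class. Kcnc4, Kcnd2, Kcnab2 and Kcnip2 lie furthest right, and the points of Kcnc4 spread more widely than those of Kcnd2.

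Among voltage-gated pores, Kv3 summed to 81.9 ± 6.96 CPM per kb in controls, of which Kcnc4 made up 51.0%. Kv4 summed to 52.0 ± 1.95 CPM per kb, and Kcnd2 alone gave 77.6% of it. Kcnd3 (7.90 CPM per kb) and the X-linked Kcnd1 (3.76) shared the rest. In the KCNQ class, which carries the M-current, Kcnq3 was at 16.3 CPM per kb and Kcnq5 at 12.2, while Kcnq1, the cardiac and epithelial member, was at 0.34. Kv1 was divided more evenly, with Kcna6 (10.02 CPM per kb), Kcna3 (9.35), Kcna1 (8.73) and Kcna2 (8.42) close together. The silent subunits, which form no channel alone and modify Kv2, summed to 50.2 CPM per kb, mostly through Kcng1 (16.5), Kcnf1 (11.96), Kcns1 (6.21) and Kcng2 (5.65). In the EAG family, Kcnh3 gave 56.0% of 38.6 CPM per kb, and Kcnh2, the ERG channel, was at 6.88.

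Kir summed to 82.8 ± 4.65 CPM per kb (75.4 to 88.3 over the 6 controls), which overlapped with Kv3 (74.0 to 91.2). It was led by Kcnj4 and by the astrocyte channel Kcnj10. Of the GIRK subunits, Kcnj3 was at 10.7 CPM per kb, Kcnj9 at 8.31, Kcnj6 at 2.15 and Kcnj5 at 0.58. Kcnj11, the pore of ATP-sensitive channels, was at 9.53. The K2P class summed to 60.4 ± 0.90 CPM per kb, with Kcnk1 and the mechanosensitive Kcnk2 (13.1) in front. The calcium-activated SK class stood at 26.4 CPM per kb, of which Kcnn2 made up 68.8%, and BK at 16.7, of which Kcnma1, the pore subunit, made up 67.2%. Slack channels, opened by sodium, were at 8.08 CPM per kb, Kcnt1 giving 69.0%. Auxiliary KChIP subunits summed to 71.2 ± 0.85 CPM per kb and Kv beta to 46.9 ± 2.16. The MinK class, at 24.2, was almost wholly Kcne1l (86.4%).

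A total of 11 low members did not pass the count filter and were not tested: Kcne3, Kcnk7, Kcna7, Kcnv2, Kcnk18 and the 6 that had at most 3 counts in every library. Those 6 were Kcnk15, Kcna10, Kcne1, Kcnmb3, Kcnk16 and Kcnj1, a kidney channel. The limit that a count of 0 allows was 0.116 to 0.160 CPM, for counting error only. A total of 29 members lay in 12 groups of neighbours less than 500 kb apart on GRCm38, and levels within such groups differed widely. On chromosome 3, Kcna3 (107036169 to 107038070, plus strand), Kcna2 (107101146 to 107115005) and Kcna10 (107183056 to 107195721) follow one another, with Kcnc4 (107438303 to 107459552, minus strand) beyond them. Their control means were 9.35, 8.42, 0.022 and 41.8 CPM per kb. On chromosome 16, Kcne2 (92292389 to 92298129) at 2.93 CPM per kb lies beside Kcne1 at 0.017. Kcnj6 (94748636 to 94997701, minus strand) at 2.15 lies beside Kcnj15 at 0.048.

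Promoter sequence from RefSeq (GRCm38.p6) was found for 67 of the 92 members, and CG dinucleotides were counted from 250 bases before to 50 bases after the start. Where a gene had several starts, 15 members, the start with the most CG was used. Tested members with a promoter (58) had a median of 17.5 CG, the 9 not tested had 6, and 27025 RefSeq genes had 8. Within the tested members, the 19 with the highest level per kb had a median of 21 CG and the 19 with the lowest had 10. The CG count is a description of sequence, and Kcnf1 (3 CG at 11.96 CPM per kb) and Kcng3 (49 CG at 0.29) went the other way. To show both ends, the 250 bases before the RefSeq start are printed for Kcnd2 (chr6:21215096-21215345, plus strand, 22 CG), the member with the second highest level, and for Kcna10 (chr3:107182893-107183142, plus strand, 0 CG), which had at most 3 counts per library. Capitals mark CG.
Kcnd2: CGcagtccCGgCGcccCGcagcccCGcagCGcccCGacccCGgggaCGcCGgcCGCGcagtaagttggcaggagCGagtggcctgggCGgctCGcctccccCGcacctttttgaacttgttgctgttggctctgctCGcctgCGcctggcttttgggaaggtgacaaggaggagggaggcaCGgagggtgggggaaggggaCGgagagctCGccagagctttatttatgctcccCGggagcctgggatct
Kcna10: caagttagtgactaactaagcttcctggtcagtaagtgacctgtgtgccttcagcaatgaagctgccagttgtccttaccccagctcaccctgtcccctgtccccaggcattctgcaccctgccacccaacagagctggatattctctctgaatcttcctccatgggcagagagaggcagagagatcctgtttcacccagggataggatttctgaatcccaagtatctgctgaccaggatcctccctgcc

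The main question was which members differed between SERTPyramid and control. No member passed an adjusted p of 0.05 in edgeR's quasi-likelihood test in labelled females, in labelled males, in their difference or in their mean (0 of 81 tested in each, against a background of 0% of 17631 genes). At an unadjusted p under 0.05 there were 6 members in labelled females (7.41%, background 8.04%), 1 in labelled males (1.23%, background 3.16%), 1 for the difference between labelled sexes (background 4.45%) and 3 for the mean (3.70%, background 6.49%). These shares were under the background of all genes, and DESeq2 and limma voom also called 0 members in each contrast. The median standard error of a member's log2 fold change was 0.10 in both labelled sexes. Differences smaller than such errors were not detectable at this number of libraries, and larger ones also went uncalled. C1ql2, a dentate granule cell marker outside the family, did not pass at -0.75 ± 0.14 for the difference between labelled sexes (edgeR adjusted p = 0.585). The 0 calls therefore do not exclude differences larger than 0.10.

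More members lay below 0 than above it, without any call. In labelled females 50 of 81 members were below 0 (61.7%, all genes 50.1%), with a median log2 fold change of -0.04 (all genes -0.00038). In labelled males 47 were below 0 (58.0%, all genes 49.5%), with a median of -0.02 (all genes 0.0016). Leaving out SERTPyramid replicate 1 labelled female, control replicate 2 labelled male or SERTPyramid replicate 3 labelled male put the respective median above 0 (at most 0.0063). Fold changes below 0 in both labelled sexes were found for 30 of 81 members, and above 0 in both for 14. The matching shares of all genes were not counted, so these 2 counts do not show agreement between the labelled sexes. The Kv1 class held all 6 of its tested members below 0 in both labelled sexes, with medians of -0.13 in labelled females and -0.08 in labelled males. In labelled males 4 of the 6 stayed below 0 without SERTPyramid replicate 3 (median -0.02, Kcna1 and Kcna2 above 0) or without control replicate 2 (median -0.02, Kcna4 and Kcna6 above 0). In labelled females 5 or 6 were below 0 whichever library was left out, with medians from -0.14 to -0.06. Kir had 8 of 12 below 0 in each labelled sex. The EAG family (5 of 8 above 0 in labelled females, 4 of 8 in labelled males) and K2P (6 of 10 and 5 of 10) were divided. Control and SERTPyramid libraries did not overlap for 5 members higher (6.17%, background 9.5%) and 6 lower (7.41%, background 9.38%) in SERTPyramid among labelled females. Among labelled males, 1 was higher (1.23%, background 3.67%) and 0 were lower (background 3.26%).

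**Figure D2:**
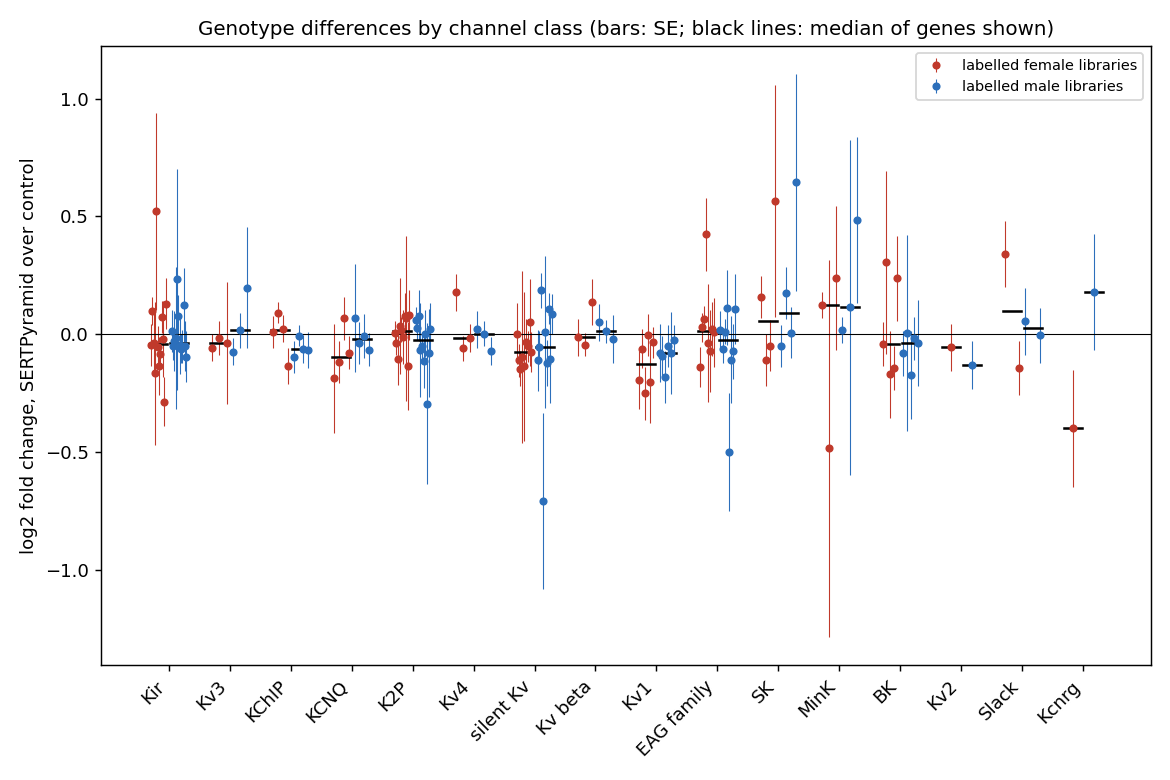
Log2 fold change of SERTPyramid over control for 78 tested members by channel class, in labelled females (red) and labelled males (blue), with SE bars and the median of the genes shown in each class (black lines). Most points lie within 0.5 of 0, and all 6 Kv1 points lie below 0 in both colours.

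The members with the smallest p in labelled females were Kcnh4, Kcnj6, Kcnd1, Kcnt1, Kcne1l, Kcna3, Kcnip2, Kcng2, Kcnip4 and Kcnn1, with edgeR adjusted p from 0.544 to 0.700. Kcnh4, an ELK-type voltage-gated subunit (11, 100740376 to 100759942, minus strand, GRCm38), was at 4.07, 5.18 and 7.05 CPM in the control libraries and 7.22, 7.07 and 7.60 CPM in SERTPyramid. The groups did not overlap, but the third control library reached almost to the SERTPyramid range. The log2 fold change was 0.43 ± 0.15 (SE, n = 3 against 3, edgeR adjusted p = 0.544), and labelled males overlapped, with 5.08 to 5.86 CPM in controls and 5.34 to 6.97 in SERTPyramid. Kcnd1, a Kv4 subunit on the X chromosome, had 19.2, 19.2 and 20.4 CPM in controls and 22.9, 23.1 and 20.5 CPM in SERTPyramid. The third SERTPyramid library lay just above the highest control, and the log2 fold change was 0.18 ± 0.08 (edgeR adjusted p = 0.583). Kcne1l, the other X-linked member and an auxiliary subunit, was at 32.1, 32.3 and 32.6 CPM against 34.5, 34.7 and 36.5 CPM, a log2 fold change of 0.12 ± 0.06 (edgeR adjusted p = 0.591). Without control replicate 1, the control whose sex-linked counts differed from the other 5 libraries, these X-linked members gave 0.17 and 0.12. Kcnip2 differed by 0.09 ± 0.05 on the log2 scale and Kcnip4 by -0.14 ± 0.08, so the 2 Kv4 partners lay on opposite sides of 0.

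In labelled males the smallest p belonged to Kcng2, Kcnh5, Kcng3, Kcns2, Kcna3, Kcnn2, Kcnn4, Kcnip1, Kcne4 and Kcnc1, all with an edgeR adjusted p of 0.999. Kcnh5, an EAG subunit, had a mean CPM of 5.04 ± 1.48 for controls and 3.62 ± 0.91 for SERTPyramid (SD, n = 3). Kcng3, a silent subunit, averaged 1.05 ± 0.40 and 0.66 ± 0.28 CPM. Kcnn2, an SK subunit of the afterhyperpolarization, averaged 137 ± 17.03 and 155 ± 14.2 CPM. All 3 overlapped between genotypes.

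Kcng2, a silent subunit that modifies Kv2 channels, was the one member whose genotypes separated in opposite directions. In labelled females controls were at 17.6, 18.2 and 16.8 CPM and SERTPyramid libraries at 14.6, 16.4 and 16.5 CPM. In labelled males controls were at 17.1, 15.6 and 16.2 CPM and SERTPyramid libraries at 17.9, 18.68 and 18.9 CPM. SERTPyramid was wholly lower under the first label and wholly higher under the second. The log2 fold changes were -0.15 ± 0.07 and 0.19 ± 0.07, and their difference of -0.33 ± 0.10 had an unadjusted p of 0.0051 and an edgeR adjusted p of 0.999. Exon bases of Kcng2 are shared with a gene on the opposite strand (272 bases), and the library kit does not mark strand. C1ql2, a marker of dentate granule cells, also separated in opposite directions, with labelled-female controls at 15.9 to 20.3 CPM and SERTPyramid at 13.1 to 14.8, and labelled-male controls at 12.6 to 15.2 CPM and SERTPyramid at 17.5 to 20.2. The difference between its log2 fold changes was -0.75 ± 0.14 (unadjusted p = 3.32e-05, edgeR adjusted p = 0.585), and its part in the Kcng2 values was not tested. Prox1, Dsp and Stxbp6, the other dentate granule markers listed, overlapped between genotypes in labelled males (0.03, 0.20 and 0.0038 on the log2 scale). Their differences between labelled sexes were -0.29, -0.36 and -0.19 (edgeR adjusted p = 0.999 for each). Among members, Kcnn2 (-0.28 ± 0.16) and Kcnj11 (0.15 ± 0.08) came next after Kcng2 for the difference between labelled sexes, and neither passed (edgeR adjusted p = 0.999).

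With the labelled sexes averaged, Kcna3, a Kv1 subunit also known from lymphocytes, had the smallest p. Among labelled females it was at 16.1, 17.8 and 17.3 CPM in controls and 13.2, 15.8 and 14.1 CPM in SERTPyramid, which did not overlap. Among labelled males it was at 16.2, 17.8 and 21.6 CPM in controls and 16.96, 18.3 and 13.9 CPM in SERTPyramid, which overlapped. The mean log2 fold change was -0.21 ± 0.08 (edgeR adjusted p = 0.756). Kcnh4 (0.27 ± 0.11), Kcnj6 (-0.17 ± 0.07) and Kcnt1 (0.20 ± 0.10) followed with the same adjusted p.

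A fit restricted to the 6 libraries labelled female, an alternative to the fit of all 12, estimates the spread from those libraries only and gave calls. There 415 of 17108 genes passed (2.43%), and 3 of 81 members (3.70%): Kcnt1 rose, and Kcnj6 and Kcna1 fell. The same fit of labelled males called 0 of 80 members and 0 of 17049 genes (0%), with 1 member at an unadjusted p under 0.05 (background 1.86%). The difference between labelled sexes did not pass for any of the 3 members (edgeR adjusted p = 0.999 for each). Without control replicate 1, whose sex-linked counts differed from the other 5 libraries, Kcnt1 passed alone (background 1.43%).

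Of 14 marker lists, the sums of 4 did not overlap between genotypes in labelled females, and those of the others overlapped. Over all genes, 9.5% did not overlap with SERTPyramid higher in this comparison and 9.38% with SERTPyramid lower. The 4 dentate granule markers summed to 283 to 347 CPM in controls and 251 to 270 in SERTPyramid, without overlap. In the fit of 12 libraries Prox1 gave -0.25 ± 0.08, C1ql2 -0.33 ± 0.10, Stxbp6 -0.18 ± 0.06 and Dsp -0.15 ± 0.11 on the log2 scale, and none passed (edgeR adjusted p of 0.530 to 0.772). Summed markers of endothelium (148 to 153 CPM against 132 to 146) and of red blood cells (58.4 to 67.5 against 44.2 to 52.9) were lower in SERTPyramid too, and those of oligodendrocyte precursors were higher (537 to 548 against 553 to 564). Single precursor markers were uneven, with Cspg4 at 0.22, Olig2 at 0.07, Olig1 at 0.03 and Pdgfra at -0.02 on the log2 scale. In endothelium Flt1 gave -0.24, Slco1a4 -0.15, Pecam1 -0.14 and Cldn5 -0.02. Among labelled males the sums of these 4 lists overlapped between genotypes. Their part in the 3 calls was not tested.

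Kcnt1, a sodium-activated channel of the Slack type (2, 25863734 to 25918273, plus strand, GRCm38), was at 51.2, 52.6 and 59.6 CPM in labelled-female controls and 69.0, 70.7 and 67.1 CPM in SERTPyramid. Every SERTPyramid library lay above every control. The log2 fold change was 0.34 ± 0.05 in labelled females alone (edgeR adjusted p = 0.000573), and 0.34 ± 0.14 in the fit of 12 libraries (adjusted p = 0.591). Labelled-male libraries were at 54.5, 53.6 and 46.3 CPM in controls and 64.6, 40.8 and 54.9 CPM in SERTPyramid. Both the highest and the lowest of these 6 were SERTPyramid libraries.

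Leng8, a nuclear gene outside the family, moved with Kcnt1 across the libraries. It was at 149 to 173 CPM in labelled-female controls and 249 to 270 in SERTPyramid. In labelled males it was at 209, 140 and 111 CPM in controls and 252, 89.7 and 197 CPM in SERTPyramid, so that the lowest of all 12 libraries, SERTPyramid replicate 2, was the lowest for Kcnt1 too. Son, Srrm2 and Ddx17, which encode nuclear RNA-processing factors, were also lowest in that library, at 305, 412 and 293 CPM. These 4 genes were chosen after their values were seen, and their part in the Kcnt1 difference was not tested. Kcnt2, the other Slack gene, gave -0.14 ± 0.12 in labelled females (edgeR adjusted p = 0.803).

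Kcnj6, the GIRK2 subunit, was at 17.4, 16.6 and 17.7 CPM in labelled-female controls and 14.3, 14.4 and 13.7 CPM in SERTPyramid. The groups stood apart by more than either group's range. The log2 fold change was -0.28 ± 0.07 in labelled females alone (edgeR adjusted p = 0.0387) and -0.28 ± 0.11 in the fit of 12 libraries (adjusted p = 0.558). In labelled males it was at 14.0, 16.2 and 16.6 CPM in controls and 16.96, 16.4 and 11.95 CPM in SERTPyramid, which overlapped. Its exons share 380 bases with a gene on the opposite strand. The call was lost when any of the 6 libraries was left out, with adjusted p of 0.0612 or more, while the log2 fold change lay between -0.31 and -0.26. Of the other GIRK subunits, Kcnj3 gave -0.08 ± 0.06 and Kcnj9 0.13 ± 0.11 in labelled females in the fit of 12 libraries, so the subunits did not lie on one side.

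Kcna1, a Kv1 subunit of axons (6, 126640397 to 126646384, minus strand, GRCm38), was at 46.1, 42.6 and 43.6 CPM in labelled-female controls and 37.9, 37.7 and 40.0 CPM in SERTPyramid. The log2 fold change was -0.19 ± 0.05 in labelled females alone (edgeR adjusted p = 0.0498), at the edge of the threshold, and -0.19 ± 0.12 in the fit of 12 libraries (adjusted p = 0.738). Among the leave-one-out fits of labelled females it was called only without SERTPyramid replicate 3. Labelled males were at 34.4, 43.7 and 40.0 CPM in controls and 41.8, 41.4 and 28.9 CPM in SERTPyramid. Next in order came Kcna3 (-0.25 ± 0.08, edgeR adjusted p = 0.113) and Kcnq3, a subunit of the M-channel (-0.11 ± 0.04, adjusted p = 0.113), neither of which passed. Kcnq3 was at 252 to 266 CPM in labelled-female controls and 236 to 238 CPM in SERTPyramid, without overlap.

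**Figure D3:**
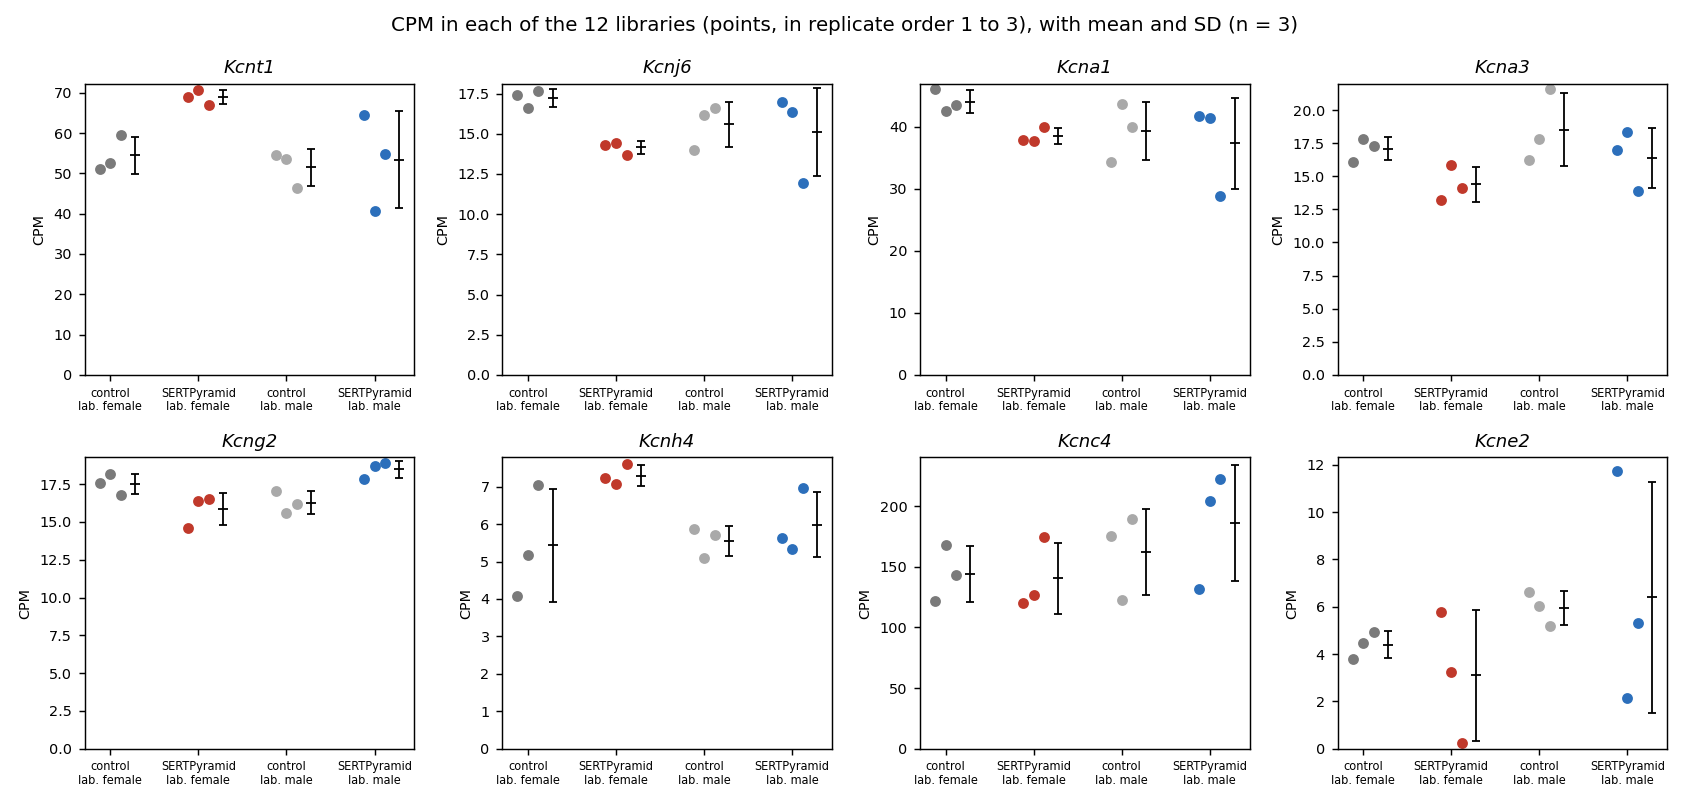
CPM in each of the 12 libraries (points) with mean and SD (n = 3) for 8 members, by genotype and labelled sex. Kcnt1, Kcnj6, Kcna1, Kcna3, Kcng2 and Kcnh4 separate the genotypes among labelled females, Kcng2 also among labelled males, and Kcnc4 and Kcne2 vary widely within groups.

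Members also varied between libraries within a genotype. Over 60 members with a mean of at least 5 CPM, the coefficient of variation across 12 libraries had a median of 7.71% (2.98% to 22.4%), against 6.18% over 11813 genes at that level. Kcnk10, a TREK-type 2-pore channel, varied least and Kcnc4 most. Kcnc4 was at 122, 168 and 143 CPM in labelled-female controls and 120, 127 and 174 CPM in SERTPyramid. In labelled males it was at 175, 122 and 189 CPM in controls and 132, 204 and 222 CPM in SERTPyramid. High and low libraries occurred in all 4 groups, and the genotype difference was -0.04 ± 0.26 in labelled females and 0.20 ± 0.26 in labelled males (log2, edgeR adjusted p = 0.983 and 0.999).

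Kcne2, an auxiliary subunit known from choroid plexus epithelium, followed the choroid plexus markers. It was at 0.26 CPM in SERTPyramid replicate 3 labelled female, where Ttr, the transthyretin of choroid plexus, was lowest at 18.6 CPM. It was at 11.7 CPM in SERTPyramid replicate 1 labelled male, where Ttr was highest at 2338 CPM. The remaining libraries lay between, at 2.14 to 6.61 CPM of Kcne2. All 7 choroid plexus markers were detected in every library, and their sum ran from 975 to 1312 CPM in labelled-female controls, 27.7 to 1247 in labelled-female SERTPyramid, 1196 to 1835 in labelled-male controls and 472 to 2477 in labelled-male SERTPyramid. The genotype difference of Kcne2 was -0.48 ± 0.80 and 0.12 ± 0.71 (log2, edgeR adjusted p = 0.915 and 0.999), and the part of the choroid plexus in it was not tested.

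**Figure D4:**
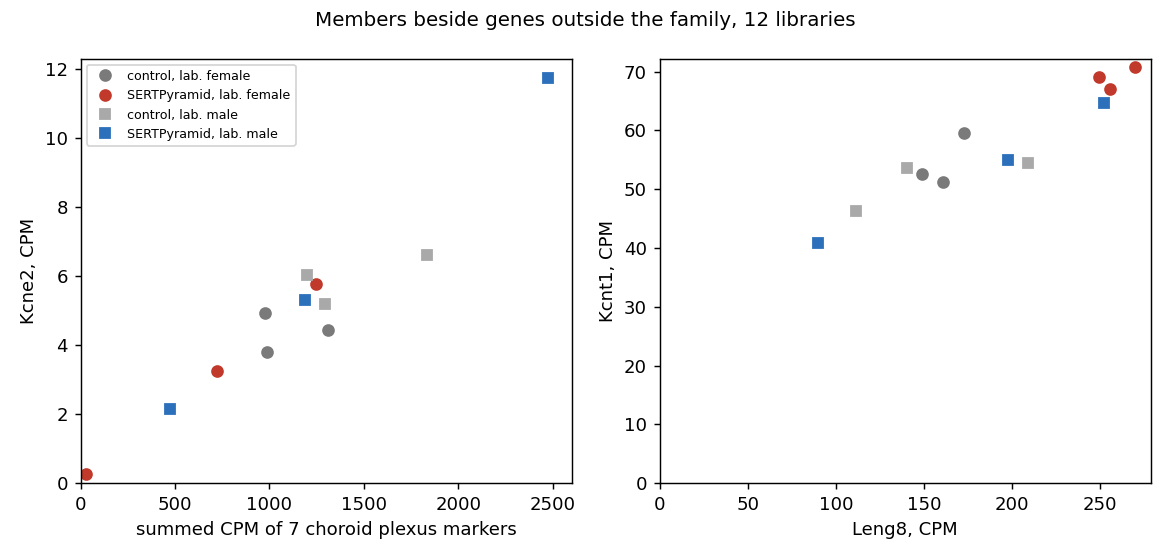
Kcne2 and Kcnt1 (CPM, vertical axes) in the 12 libraries beside the summed CPM of 7 choroid plexus markers and Leng8 (horizontal axes). Kcne2 runs from 0.26 CPM in the library with the lowest marker sum to 11.7 CPM in the one with the highest. For Kcnt1 and Leng8 the 3 labelled-female SERTPyramid libraries lie at the upper right. SERTPyramid replicate 1 labelled male lies near them, at 64.6 CPM of Kcnt1 and 252 CPM of Leng8.

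A total of 3 libraries stood apart for many members, 2 of them labelled male. SERTPyramid replicate 3 was the lowest of 12 libraries for 21 of 81 members (25.9%, all genes 13.5%), and control replicate 1 for 13 (16.0%, all genes 7.97%). SERTPyramid replicate 1 labelled female was lowest for 12 (14.8%, all genes 6.70%). Long transcripts were lower in the pair labelled male. Across the 60 members with at least 5 CPM, the library's log2 deviation from the mean of 12 and the log2 length of the longest annotated transcript gave r = -0.50 in SERTPyramid replicate 3 and -0.46 in control replicate 1, against 0.21 in SERTPyramid replicate 1 labelled female. Over all genes at that level r was -0.41 and -0.30, and these points share a library and are not independent. With GC content the members' r was 0.40 and 0.34. Kcnma1, the long BK pore gene, was at 143 and 168 CPM in these labelled-male libraries against 187 to 201 in the other 10. Kcnq3 was at 183 and 199 CPM against 229 to 266. Kcna1 was lower too, at 28.9 and 34.4 CPM against 37.7 to 46.1. Its longest transcript (4.03 kb) is under the median of these 60 members (4.16 kb), so it is no example of length.

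**Figure D5:**
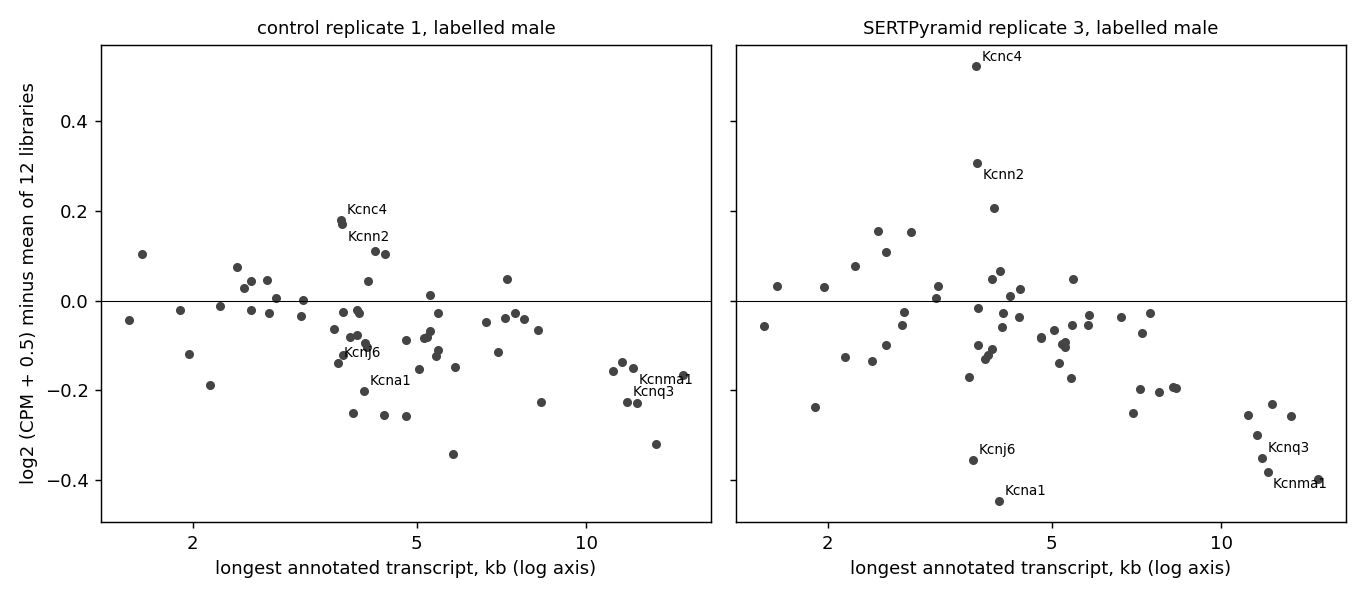
Deviation of log2 (CPM + 0.5) from the mean of 12 libraries for 60 members against the length of the longest annotated transcript (log axis), in control replicate 1 and SERTPyramid replicate 3 labelled male. The longest members lie below 0 in both libraries, and Kcnc4 lies above.

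GC content also went with the sign of the labelled-female difference. Of 30 members with higher GC, 17 were above 0 with a median log2 fold change of 0.03, and of 30 with lower GC, 5 were above 0 with a median of -0.05. All genes showed medians of 0.04 and -0.03 in the same divisions. Transcript length divided the labelled-female signs too. Of 30 longer members 7 were above 0 (median -0.04, all genes -0.02), and of 30 shorter ones 15 (median -0.0036, all genes 0.0063). In labelled males 12 of 30 were above 0 in each GC division, and 13 of the longer and 11 of the shorter members. With offsets that remove each library's trend with GC, 4 members passed in labelled females alone (Kcnt1, Kcnj6, Kcna1 and Kcna3, background 1.67%). With length offsets the same 3 as without passed (background 2.46%).

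A total of 40 genes that work with these channels but carry other symbols were read from a list, 38 of them tested. None passed in edgeR in any of the 4 contrasts, with 4, 0, 2 and 2 at an unadjusted p under 0.05 in labelled females, labelled males, their difference and their mean (background 8.04%, 3.16%, 4.45% and 6.49%). In labelled females alone 1 of the 38 passed (background 2.43%): Vapa, an endoplasmic reticulum protein that anchors Kv2 clusters, was lower (edgeR log2 fold change -0.20 ± 0.04, adjusted p = 0.0152). Its CPM averaged 119 ± 0.54 in controls and 104 ± 6.92 under SERTPyramid (SD, n = 3). The fit of 12 libraries gave -0.20 ± 0.06 in labelled females (edgeR adjusted p = 0.530) and 0.11 ± 0.06 in labelled males (adjusted p = 0.999). Abcc8, the sulfonylurea receptor of Kcnj11 channels, differed by 0.18 ± 0.08 in labelled females (edgeR adjusted p = 0.591). Lgi1, a secreted partner of Kv1 complexes, differed by -0.14 ± 0.06 (edgeR adjusted p = 0.568). Htr1a, which opens GIRK channels, differed by -0.02 ± 0.08 in labelled females (edgeR adjusted p = 0.976) and -0.02 ± 0.08 in labelled males (adjusted p = 0.999).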

How the data were processed

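Per the labels' protocols, mRNA libraries came from a TruSeq v2 kit, whose reads carry no strand information. The authors deposited raw counts of reads per Ensembl gene for 12 libraries, with mm10 as the build per the submitters' processing notes. The aligner, counting settings and annotation: not given in the sources used here. How reads fitting several genes were counted is not given either, and 27 members share exon bases with another gene, 25 of them with one on the opposite strand. Symbols were found for 52401 of 52634 identifiers. Coordinates and lengths are from GENCODE M21 (GRCm38), where 52487 matched, and promoters from RefSeq (GRCm38.p6). Entries without a promoter were not searched for elsewhere.

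Groups were taken from the labels. Genes were kept by filterByExpr, scaled by TMM (factors 0.983 to 1.02) and tested over the whole table with edgeR 4.0.16 in R 4.3.3 (quasi-likelihood F test, robust), all 12 libraries in 4 groups, with Benjamini-Hochberg adjustment over 17631 genes and a threshold of 0.05. Standard errors were taken as |log2 fold change| divided by the root of F. Duplicate libraries were looked for, and within groups their chi-square per degree of freedom ranged from 2.47 to 13.5, more than sampling noise gives. The alternatives were DESeq2 1.42.0, limma 3.58.1 voom with quality weights, RLE scaling, other filters, a replicate block, an adjusted p of 0.1, the compared groups alone and leaving out each library. Offsets for GC content and length, and the leave-one-out, DESeq2 and voom fits of labelled females alone, were added after the data were seen. The code was tested on simulated data.

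The members, the partner genes and the markers were chosen with earlier results of these data known. Named were members past the threshold, or, where fewer than 5 passed, the 10 with the smallest p (5 in the fits of 1 labelled sex), the 10 highest per kb, the top of each class, and the partners that passed or, where none did, those of smallest p. Kcnc4, Kcne2, Kcnf1, Kcnma1, Kcnk10, Kcnt2, Htr1a, the neighbouring genes and others set beside these results were named after their values were seen. Some genes that the rule takes for a name stay unreported here. Library totals are given as a range, and limits for a count of 0 cover counting error only.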

Additional observations from a re-analysis of the deposited data

Results flagged for a closer look

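Kcng2, a silent Kv subunit, drew attention because every SERTPyramid library lay below every control among labelled females and above every control among labelled males. The difference between the log2 fold changes was -0.33 (SE 0.10) with an unadjusted p of 0.0051 in edgeR's interaction contrast, and it did not pass after adjustment over all genes (adjusted p = 0.999). Leaving out each library in turn kept the difference between -0.36 and -0.27. C1ql2, a dentate granule cell marker, separated the genotypes the same way under each label, with a difference of -0.75 ± 0.14 (unadjusted p = 3.32e-05, edgeR adjusted p = 0.585). Prox1, Dsp and Stxbp6, the other dentate granule markers listed, overlapped between genotypes in labelled males.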

How the results depend on the processing

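In the fit of all 12 libraries no member was called in labelled females, in labelled males or for their difference under DESeq2, voom, RLE scaling, either other filter, GC or length offsets, an adjusted p of 0.1, a replicate block or any left-out library. For the mean of the labelled sexes the leave-one-out counts were 0 to 1. Without SERTPyramid replicate 2 labelled male, Kcnt1 was the 1 member among 144 genes called over the whole table. Its log2 fold change there was 0.28 (edgeR adjusted p = 0.0330). In labelled females alone, 3 members passed (2.43% of all genes), 4 with GC offsets (1.67%), 3 with length offsets (2.46%), 1 with DESeq2 (1.96%), 3 with voom (2.89%) and 1 to 3 when a library was left out (0.78% to 2.69%). Kcnt1 passed in each of these fits, with an adjusted p down to 5.46e-05 when a library was left out. Beside Kcnt1, Kcnh4 passed once without control replicate 3, Kcnj9 once without SERTPyramid replicate 1 and Kcnn2 once without SERTPyramid replicate 3. The cause of these differences between fits was not tested. Of the alternative values of members printed with a fold change, 921 kept their direction and their side of the threshold, 13 lost a call, 4 gained one and 7 reversed, all of Kcnc4 and Kcne2 and none called. Left-out libraries put Kcnc4 at -0.219 to 0.0892 in labelled females, with 0.0892 without control replicate 2, 0.0671 without SERTPyramid replicate 1 and 0.0314 without SERTPyramid replicate 2. They put Kcne2 at -1.36 to 0.0612 in labelled females, the highest without SERTPyramid replicate 3, and at -0.657 (without SERTPyramid replicate 1) to 0.527 in labelled males. In labelled males Kcne2 was also below 0 in voom (-0.154) and with the replicate block (-0.0158).

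Same-numbered libraries were not paired by the labels. Over 18 pairs r was -0.23 to 0.23, 2 of them over 0.1, and 3 of 12 libraries correlated best with their own number. With the replicate block 0 members passed in all 4 contrasts. The members' median for the difference between labelled sexes moved from 0.0041 to -0.04 without control replicate 2 labelled male, -0.05 without SERTPyramid replicate 3 labelled male and 0.05 without both control libraries numbered 1. Depth left 11 members below the count filter, and these were not tested.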

Other observations

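Kcnf1, a silent Kv subunit, was at 46.8 to 55.0 CPM in the 4 libraries numbered 1 and at 52.8 to 67.5 CPM in the other 8. Kcnh5, an EAG subunit, was at 3.24 to 3.73 CPM in the libraries numbered 1 and at 2.66 to 6.13 CPM in the others. Dpp10, an auxiliary protein of Kv4 channels, was at 33.9 to 38.4 CPM against 38.0 to 56.1 CPM. The genes were picked once their values had been seen, and the number is a label of the replicate only.

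Hcn2, a hyperpolarization-activated channel and 1 of the 40 partner genes, averaged 227 ± 33.2 CPM in labelled-female controls and 174 ± 20.6 in SERTPyramid, and 215 ± 39.4 and 275 ± 50.7 in labelled males (SD, n = 3). Hcn2 libraries did not overlap in labelled females and overlapped in labelled males, with log2 fold changes of -0.38 ± 0.19 and 0.36 ± 0.19 (edgeR adjusted p = 0.673 and 0.999).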
